A study of Mus musculus with 12 samples.

Results

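The pro-apoptotic members of the BCL2 family were followed in resting B cells (RB cells) of the mouse spleen, 4 h after stimulation through Toll like receptor 2, CD86 or CD40. Members were taken by gene symbol from the array files, and all 10 symbols sought (Bcl2l11, Pmaip1, Bbc3, Bid, Bad, Bmf, Bik, Hrk, Bax and Bak1) were found, on 14 of 61307 probes. The array carries 50090 gene names in all. The RNA came from female BALB/c mice of 6 weeks, per the labels, and 12 arrays fell into 6 groups of 2: unstimulated RB cells, Pam2CSK4 (a lipopeptide ligand of Toll like receptor 2), anti-CD86, anti-CD86 plus Pam2CSK4 (TLR2.CD86), anti-CD40, and anti-CD40 plus Pam2CSK4 (TLR2.CD40). RB cells were obtained by CD43 negative selection, so they are a mixture of splenic B cell subsets with a small remainder of other cells, and the isotype control antibody was not analysed here. A legend in the study speaks of biological replicates, and no source used here says whether mice were pooled, so the p-values measure the spread between these arrays. The labels give 4 h for all 12 arrays but describe a culture step for stimulated samples only, so whether the unstimulated cells were cultured is not stated.

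Mitochondrial apoptosis is decided by contacts between 3 kinds of BCL2 proteins. The BH3-only proteins (Bim, the product of Bcl2l11, Noxa of Pmaip1, Puma of Bbc3, and Bid, Bad, Bmf, Bik and Hrk) sense stress or loss of survival signals. They bind and neutralise the pro-survival members such as Bcl-xL and Mcl-1, and some of them engage the effectors Bax and Bak directly, which then perforate the outer mitochondrial membrane and release cytochrome c. In B cells, Bim is known for the removal of self-reactive and surplus cells, and signals through CD40 are known to protect B cells by raising pro-survival members.

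The values are log2 levels, that is, the log2 of the processed signal minus the log2 of the 75th percentile of the same array, so 0 is the brightness below which 75% of the spots of that array lie. For a gene with several probes the brightest one was used and the others are given where they differ. Brightness depends on the probe, so levels are compared between arrays and not between genes. In these bulk samples, fewer cells of a type and less RNA per cell cannot be told apart.

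The probes bear on what the levels mean, because a 60-base probe reads only the transcripts that hold its site. The 3 probes shown whole lie in coding sequence, so they read the transcript of the protein itself. In Bcl2l11 the capitals mark the codons of the glycine and aspartate at the core of the BH3 domain, the stretch with which Bim grips its partners.
Bcl2l11 coding probe: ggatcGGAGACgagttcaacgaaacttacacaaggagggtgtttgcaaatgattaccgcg
Bak1 coding probe: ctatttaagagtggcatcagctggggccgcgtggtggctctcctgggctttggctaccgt
Bax probe: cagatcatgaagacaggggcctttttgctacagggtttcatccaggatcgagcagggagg
The brightest probes of Bid, Bmf, Bbc3, Bcl2l11 and Bak1, on which most values below rest, are identified by their first 30 bases.
Bid: ctctttccctgggtaacatcacagaagatt
Bmf: ttttttggttctttatatgtatacatgtgt
Bbc3: tgggagcggggagggacggcccagcctgta
Bcl2l11: aacagcactgatctctgtatagtccccatc
Bak1: gggcactctttggaggtgtccacactagag
The files leave the member probes unmapped on the genome, and the Bmf sequence is poor in G and C (31.7% over its 60 bases, against 55% for Bbc3).

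Of the 10 genes, 7 (Bcl2l11, Pmaip1, Bbc3, Bid, Bmf, Bax and Bak1) were well above background on all 12 arrays. Bad was dim and passed on both arrays of 4 groups. Bik and Hrk, BH3-only genes known for roles in epithelial cells and neurons, were not well above background on any array, and they and a further Bmf probe were not tested. The test therefore covered 8 genes on 11 probes. It was limma over all 12 arrays with adjustment over 31596 probes, and a change was called at an adjusted p under 0.05.

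Several facts about the arrays touch these values. One slide held 8 arrays (both unstimulated, both TLR2.CD40 and replicate 1 of the other groups) and another slide held replicate 2 of Pam2CSK4, anti-CD86, TLR2.CD86 and anti-CD40. Spots well above background made up 46.6% to 60.6% of an array, and anti-CD40 replicate 2, at 60.6%, had the highest median signal (51.2, against 17.3 to 33.5 on the other arrays). On the second slide the brightest probes of the 7 well-detected members were lower by 0.15 (Bmf) to 0.36 (Bak1) on the log2 scale than on the first, beside a median shift of -0.13 over all tested probes. Both B cell identity and other cells were visible: all 9 B cell markers were well above background in every group, and the summed levels of 7 T cell markers (31.1 to 31.5 times the 75th percentile in unstimulated RB cells, 19.3 to 27.9 in the stimulated groups), 5 NK cell markers (15.3 to 15.6, against 8.63 to 13.3), 3 platelet markers (4.05 to 4.37, against 2.06 to 3.37) and 10 myeloid markers (498 to 530, against 352 to 496) were highest in unstimulated RB cells. Not every marker in these sums was highest there. Cd3e, Cd4 and Lat (T cell), Ncr1 and Prf1 (NK cell) and Itga2b (platelet) had a higher mean in some stimulated group. So did Cd14, Lyz1, Lyz2 and S100a9 of the myeloid markers. The sum of B cell markers (346 to 375 in unstimulated RB cells) was highest with TLR2.CD40 (450 to 505). So was that of 4 plasma cell markers (199 to 221, and 254 to 262 with TLR2.CD40). Of these 4, Igj alone was higher with TLR2.CD40 than in unstimulated RB cells (mean log2 levels of 7.97 and 7.62). Sdc1 (0.52 and 1.47), Xbp1 (2.56 and 3.12) and Prdm1 (-0.30 and -0.22) were lower. The part of both sums in the rises of Bid and Bcl2l11 with TLR2.CD40 was not tested. S100a9 and Cd79b, in the myeloid and B cell sums, were saturated on all arrays. The level of a saturated probe moves only with the 75th percentile of its array. That percentile was lowest on the TLR2.CD40 arrays (log2 of 8.07 and 7.87, against 8.45 and 8.26 on the unstimulated ones). Igj stood near the level of the saturated Cd79b (both a mean of 7.97 with TLR2.CD40). The B cell and plasma cell sums are therefore not read as a rise of these cells.

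**Figure D1:**
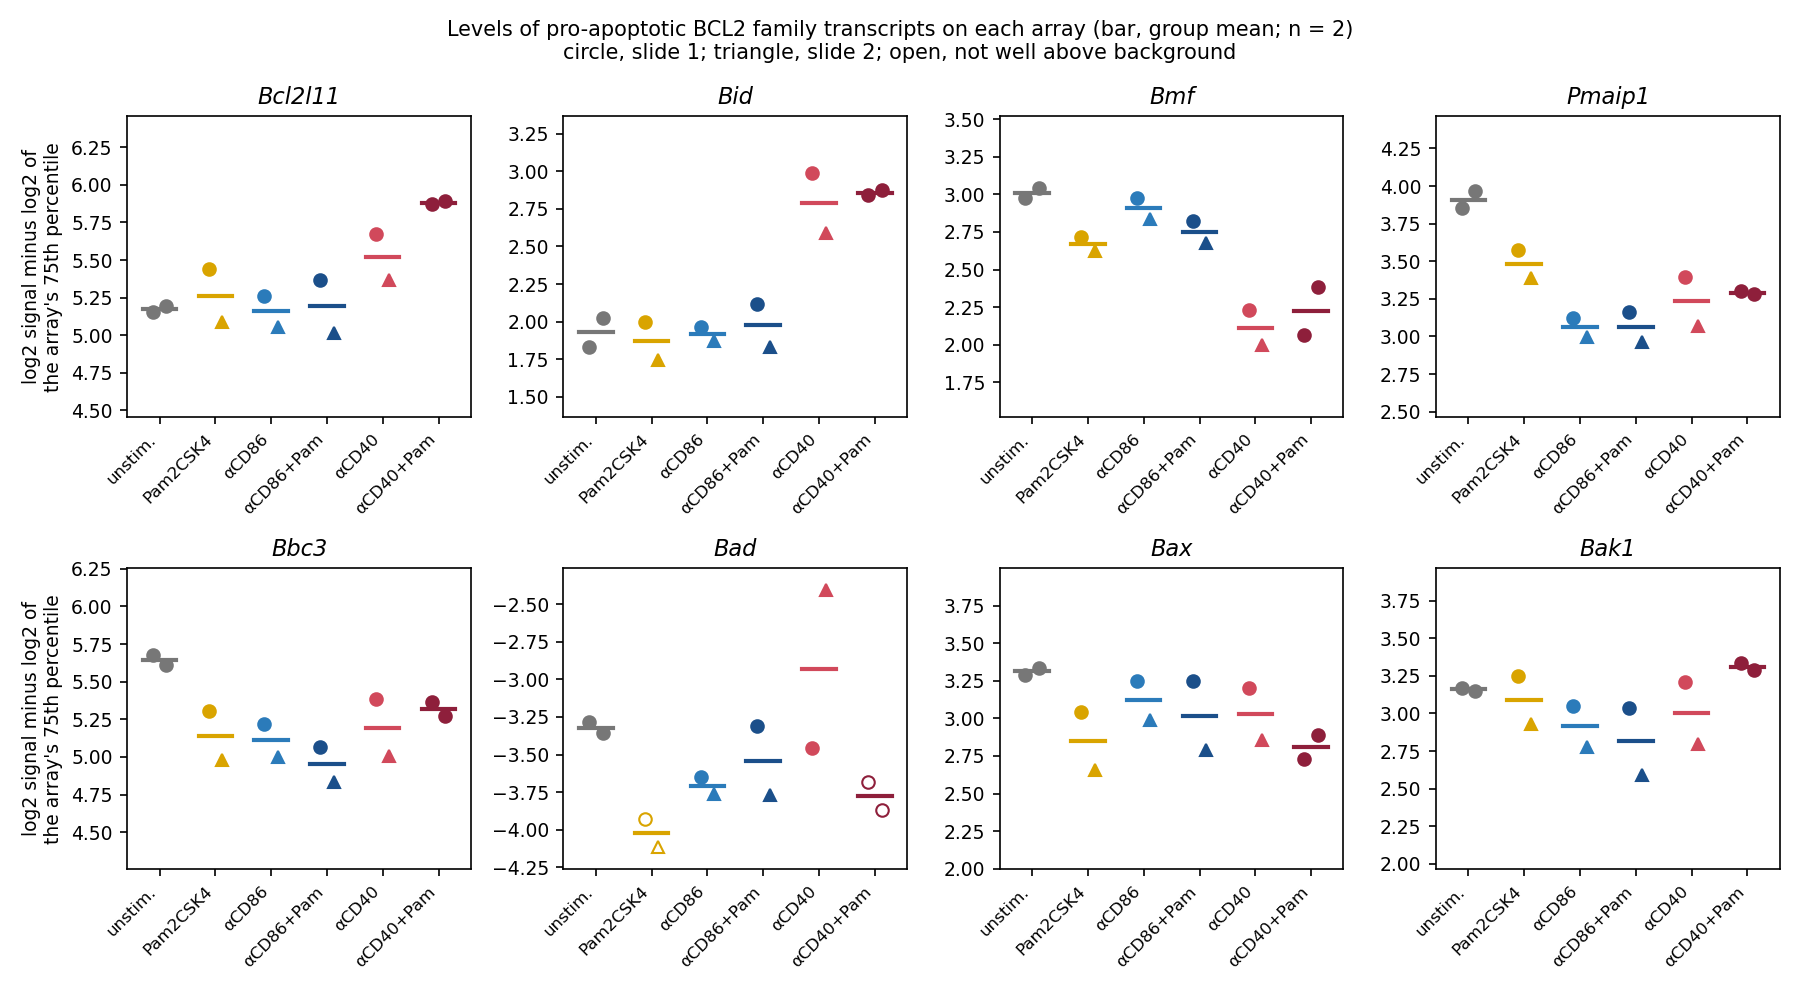
Log2 level of the brightest probe of 8 pro-apoptotic BCL2 family genes on each of 12 arrays (y axis, log2 signal minus the log2 75th percentile of the array; x axis, group). Circles are slide 1, triangles slide 2, open symbols are not well above background, and bars are group means of 2 arrays. Bid stood between 2.59 and 2.99 on the 4 arrays with anti-CD40 and between 1.74 and 2.12 on the other 8, while Pmaip1 was highest on both unstimulated arrays.

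Bid rose and Bmf fell wherever anti-CD40 was present. Bid links death receptors to mitochondria once caspase-8 has cut it, and Bmf is a BH3-only protein held at the cytoskeleton through dynein light chains. The log2 level of Bid was 1.83 and 2.02 on the unstimulated arrays, 2.99 and 2.59 with anti-CD40, and 2.84 and 2.88 with TLR2.CD40. With Pam2CSK4 it was 2.00 and 1.74, with anti-CD86 1.96 and 1.87, and with TLR2.CD86 2.12 and 1.83. The 4 arrays that received anti-CD40 lay above the other 8, and the 4 groups without it overlapped one another. How many of all probes split in this way was not counted.

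Against unstimulated RB cells Bid changed by a log2 fold of 0.86 (SE 0.17, adjusted p = 0.0172) with anti-CD40, a 1.81-fold rise, and 0.93 (SE 0.17, adjusted p = 0.00887) with TLR2.CD40, a 1.90-fold rise. Under median scaling the anti-CD40 value was 0.29 (adjusted p = 0.686), and without the filter on dim probes it missed the threshold (adjusted p = 0.0745), within 0.000721 to 0.686 over the alternatives. The other stimuli gave -0.06 (95% interval -0.46 to 0.34) for Pam2CSK4, -0.01 (-0.41 to 0.38) for anti-CD86 and 0.05 (-0.35 to 0.44) for TLR2.CD86. Bid also differed directly between stimuli. It was higher with anti-CD40 than with anti-CD86 by 0.87 (adjusted p = 0.0188) and than with Pam2CSK4 by 0.92 (adjusted p = 0.0283), and within the second slide, which holds 1 array of each, these differences were 0.72 and 0.85.

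Bmf had a log2 level of 2.98 and 3.04 on the unstimulated arrays, 2.23 and 2.00 with anti-CD40, and 2.06 and 2.38 with TLR2.CD40. The other groups lay between 2.62 and 2.97, that is, below the unstimulated arrays and above all 4 arrays with anti-CD40. The share of all probes with this order was not counted. Bmf changed by a log2 fold of -0.90 (SE 0.15, adjusted p = 0.00887) with anti-CD40, 1.86-fold lower, and -0.79 (SE 0.15, adjusted p = 0.00868) with TLR2.CD40, 1.73-fold lower. Values with Pam2CSK4 (-0.34), TLR2.CD86 (-0.26) and anti-CD86 (-0.10) did not pass. Bmf was lower with anti-CD40 than with anti-CD86 by a log2 difference of -0.79 (adjusted p = 0.0141), and on the second slide alone this was -0.84.

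The fall of Bmf rests on its bright probe. A second Bmf probe sat near background (log2 levels of -3.45 to -1.79 over the 12 arrays), where anti-CD40 replicate 2 was the highest array, and it gave 0.55 (SE 0.51, adjusted p = 0.476) with anti-CD40 and -0.26 (adjusted p = 0.786) with TLR2.CD40. Averaging both probes took the Bmf values to -0.17 (adjusted p = 0.639) and -0.52 (adjusted p = 0.167), over ranges of 0.00208 to 0.639 and 0.00127 to 0.604 across the alternatives.

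Bcl2l11, which encodes Bim, was higher with TLR2.CD40 than in unstimulated RB cells. Its log2 level was 5.16 and 5.19 on the unstimulated arrays, 5.68 and 5.37 with anti-CD40, and 5.87 and 5.89 with TLR2.CD40. Pam2CSK4 gave 5.44 and 5.09, anti-CD86 5.26 and 5.05, and TLR2.CD86 5.37 and 5.02. Both TLR2.CD40 arrays were above all others, a split whose share of all probes was not counted. The anti-CD40 arrays were above the unstimulated ones but overlapped Pam2CSK4.

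The log2 fold change of Bcl2l11 was 0.71 (SE 0.18, adjusted p = 0.0303) with TLR2.CD40, 1.63-fold, and 0.35 (SE 0.18, adjusted p = 0.217) with anti-CD40. Blocking on the slide brought the anti-CD40 value to 0.50, which passed (adjusted p = 0.00130, the lowest of the alternatives, which reached 0.767). The Pam2CSK4 value, 0.09 (adjusted p = 0.823), became 0.24 and passed as well once the slide was blocked (adjusted p = 0.0490, where the alternatives reached 0.945). TLR2.CD40 also exceeded TLR2.CD86 by 0.69 (SE 0.18, adjusted p = 0.0443). The probe over the BH3 codons gave 0.58 (SE 0.20, adjusted p = 0.0853) with TLR2.CD40 and 0.10 (SE 0.20, adjusted p = 0.761) with anti-CD40, and on that probe too both TLR2.CD40 arrays, at 1.60 and 1.60, were above the other 10. With the mean of both probes the TLR2.CD40 value was 0.64 (adjusted p = 0.0548), and the alternatives spanned adjusted p from 0.000172 to 0.872.

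The promoters of Bid, Bmf and Bcl2l11, which all passed with TLR2.CD40, are shown because Foxo factors and NF-kB, which act downstream of survival signals in B cells, are known to bind promoters of BH3-only genes. Each sequence is the 250 bases before the most upstream start site of the gene in a RefSeq table of GRCm38.p6, and such windows were read for 8 of the 10 genes (not for Pmaip1 and Bik). Capitals mark matches to TGTTTAC (Foxo), to GGG, 2 free bases, TT, 1 free base and CC (NF-kB), or to CACGTG (E-box), on either strand, which do not overlap each other in these windows.
Bcl2l11, chr2:128125788-128126037, plus strand: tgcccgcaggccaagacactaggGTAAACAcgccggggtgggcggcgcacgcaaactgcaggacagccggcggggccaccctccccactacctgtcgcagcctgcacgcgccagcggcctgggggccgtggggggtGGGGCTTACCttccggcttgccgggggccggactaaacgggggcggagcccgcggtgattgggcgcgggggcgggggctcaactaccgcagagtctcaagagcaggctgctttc
Bid, chr6:120916825-120917074, minus strand: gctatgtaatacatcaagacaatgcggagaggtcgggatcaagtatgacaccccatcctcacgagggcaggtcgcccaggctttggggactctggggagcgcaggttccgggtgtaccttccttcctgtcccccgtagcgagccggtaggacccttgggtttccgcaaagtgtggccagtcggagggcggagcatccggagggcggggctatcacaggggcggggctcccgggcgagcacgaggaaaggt
Bmf, chr2:118549687-118549936, minus strand: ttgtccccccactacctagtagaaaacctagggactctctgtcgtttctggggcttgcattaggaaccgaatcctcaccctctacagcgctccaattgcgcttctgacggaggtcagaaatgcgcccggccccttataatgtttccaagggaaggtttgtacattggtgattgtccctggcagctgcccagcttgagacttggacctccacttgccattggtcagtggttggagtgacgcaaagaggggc
The Bcl2l11 window held 1 Foxo match and 1 NF-kB match, ending 220 and 104 bases before the start site, and the Bid and Bmf windows held none of these letters. Of 32851 windows of the same length, 3.17% held the Foxo letters, 4.11% those of NF-kB and 6.02% the E-box. Among the other members, Bbc3 held the NF-kB letters and Bax the E-box. These are matches of letters only.

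Pmaip1 was lower with every stimulus, and the fall passed the test with all but Pam2CSK4 alone. Noxa, its product, is a BH3-only protein that binds Mcl-1 above all. Its log2 level was 3.85 and 3.97 on the unstimulated arrays and lay between 2.96 and 3.57 on the 10 stimulated arrays. The share of all probes split in this way was not counted. The second slide, which holds no unstimulated array, read Pmaip1 lower (log2 shift of -0.21). Anti-CD86 gave a mean of 3.06 ± 0.086 (SD, n = 2), TLR2.CD86 3.16 and 2.96, anti-CD40 3.40 and 3.07, and TLR2.CD40 3.30 and 3.28.

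The log2 fold change of Pmaip1 was -0.85 (SE 0.15, adjusted p = 0.0372) with anti-CD86, 1.80-fold lower, and -0.85 (adjusted p = 0.0172) with TLR2.CD86. It was -0.68 (adjusted p = 0.0210) with anti-CD40 and -0.62 (adjusted p = 0.0224) with TLR2.CD40. These calls were all lost without the filter on dim probes (adjusted p from 0.0937 to 0.208) and under median scaling (adjusted p from 0.139 to 0.959). Pam2CSK4, at 3.57 and 3.39, gave -0.43 (adjusted p = 0.246), which passed once the slide was blocked (-0.32, adjusted p = 0.0402), the lowest p of alternatives that reached 0.892. Pmaip1 and Bad were among the genes that the study picked on these arrays, so their direction is not independent evidence.

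Bbc3, which encodes Puma, a BH3-only protein able to bind all pro-survival members, was also highest in unstimulated RB cells. Its log2 level was 5.67 and 5.61 there, 5.07 and 4.83 with TLR2.CD86, and between 4.98 and 5.38 with the other stimuli. The log2 fold change passed with TLR2.CD86 (-0.69, SE 0.18, adjusted p = 0.0450, 1.62-fold lower). It was -0.53 (adjusted p = 0.127) with anti-CD86, -0.50 (adjusted p = 0.252) with Pam2CSK4, -0.45 (adjusted p = 0.116) with anti-CD40 and -0.32 (adjusted p = 0.239) with TLR2.CD40. All 4 passed once the slide was blocked (adjusted p from 0.00730 to 0.0283). Those of anti-CD86 (adjusted p = 0.0284) and anti-CD40 (adjusted p = 0.0216) also passed with the replicate number as a block. Over all alternatives the adjusted p of these 4 reached up to 0.959. Like Pmaip1 and Bbc3, the T cell, NK cell, platelet and myeloid marker sums, though not every marker in them, were highest in unstimulated RB cells. The part of these sums in the falls of Pmaip1 and Bbc3 was not tested.

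**Figure D2:**
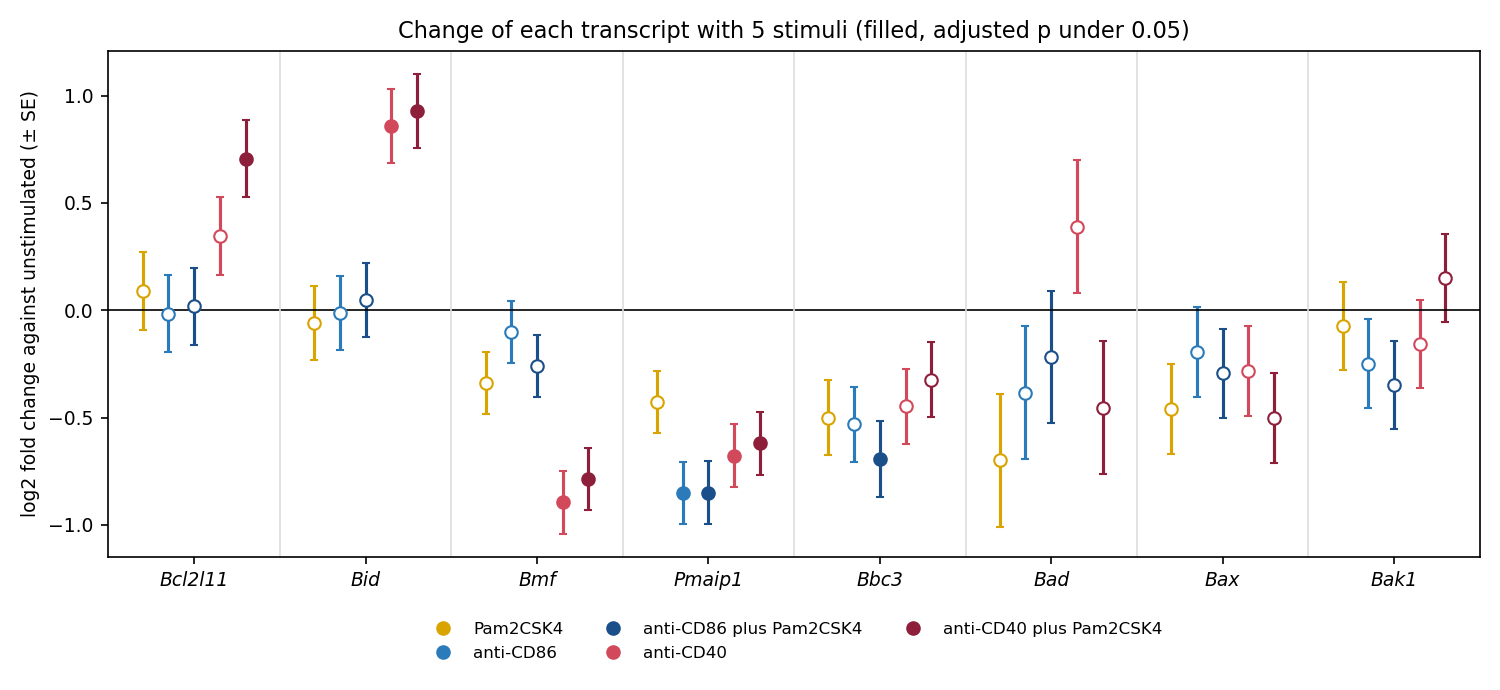
Log2 fold change against unstimulated RB cells (y axis, ± SE) of 8 genes with 5 stimuli, n = 2 arrays a group. Filled points had an adjusted p under 0.05. Bid (0.86 and 0.93) and Bmf (-0.90 and -0.79) passed with both stimuli that hold anti-CD40, Bcl2l11 (0.71) with TLR2.CD40, Bbc3 (-0.69) with TLR2.CD86, and Pmaip1 with all stimuli but Pam2CSK4.

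Bad, which survival kinases silence by phosphorylation, was close to background. Its log2 level was -3.28 and -3.36 on the unstimulated arrays, -3.65 and -3.76 with anti-CD86, -3.31 and -3.77 with TLR2.CD86, and -3.46 and -2.41 with anti-CD40. On the Pam2CSK4 and TLR2.CD40 arrays it was not well above background, which made it at least 1.24-fold and at least 1.19-fold lower there than in unstimulated RB cells (measured means of -4.02 and -3.78 against -3.32, adjusted p = 0.324 and 0.353). These bounds set the unstimulated mean against, on each array, the higher of the probe's own signal and the dimmest signal that counted as well above background. No difference in Bad from unstimulated RB cells passed the test over all 12 arrays, though that with TLR2.CD40 passed on slide 1 alone. Anti-CD40 replicate 2, the array with the raised low end, was its highest array, and without anti-CD40 replicate 1 the anti-CD40 value of 0.39 (adjusted p = 0.404) became 0.91 (adjusted p = 0.0274), without replicate 2 -0.13.

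Neither effector, Bax nor Bak1, passed the test with any stimulus. Bax had a log2 level of 3.29 and 3.34 on the unstimulated arrays, 2.73 and 2.89 with TLR2.CD40 and 2.66 to 3.25 with the other stimuli. Its log2 fold change ran from -0.19 (anti-CD86) to -0.50 (TLR2.CD40, SE 0.21, adjusted p = 0.134), the last of which passed once the slide was blocked (adjusted p = 0.00208, the lowest of alternatives that reached 0.864). No stimulated Bax array reached the unstimulated ones, a split whose share of all probes was not counted.

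Bak1 had a log2 level of 3.17 and 3.15 on the unstimulated arrays and 2.59 to 3.34 on the stimulated ones, which overlapped. Its log2 fold change was between -0.35 (TLR2.CD86, 95% interval -0.82 to 0.13) and 0.15 (TLR2.CD40, -0.32 to 0.62), with adjusted p from 0.290 to 0.884. The dimmer Bak1 probe, which lies in coding sequence, pointed the other way with TLR2.CD86, at 0.76 (SE 0.31, adjusted p = 0.144), and read 0.71 (adjusted p = 0.148) with TLR2.CD40. On that probe 1 array of each of these groups stood out, TLR2.CD86 replicate 2 at -0.48 and TLR2.CD40 replicate 1 at -0.40, against -1.62 to -1.16 on the other 10.

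**Figure D3:**
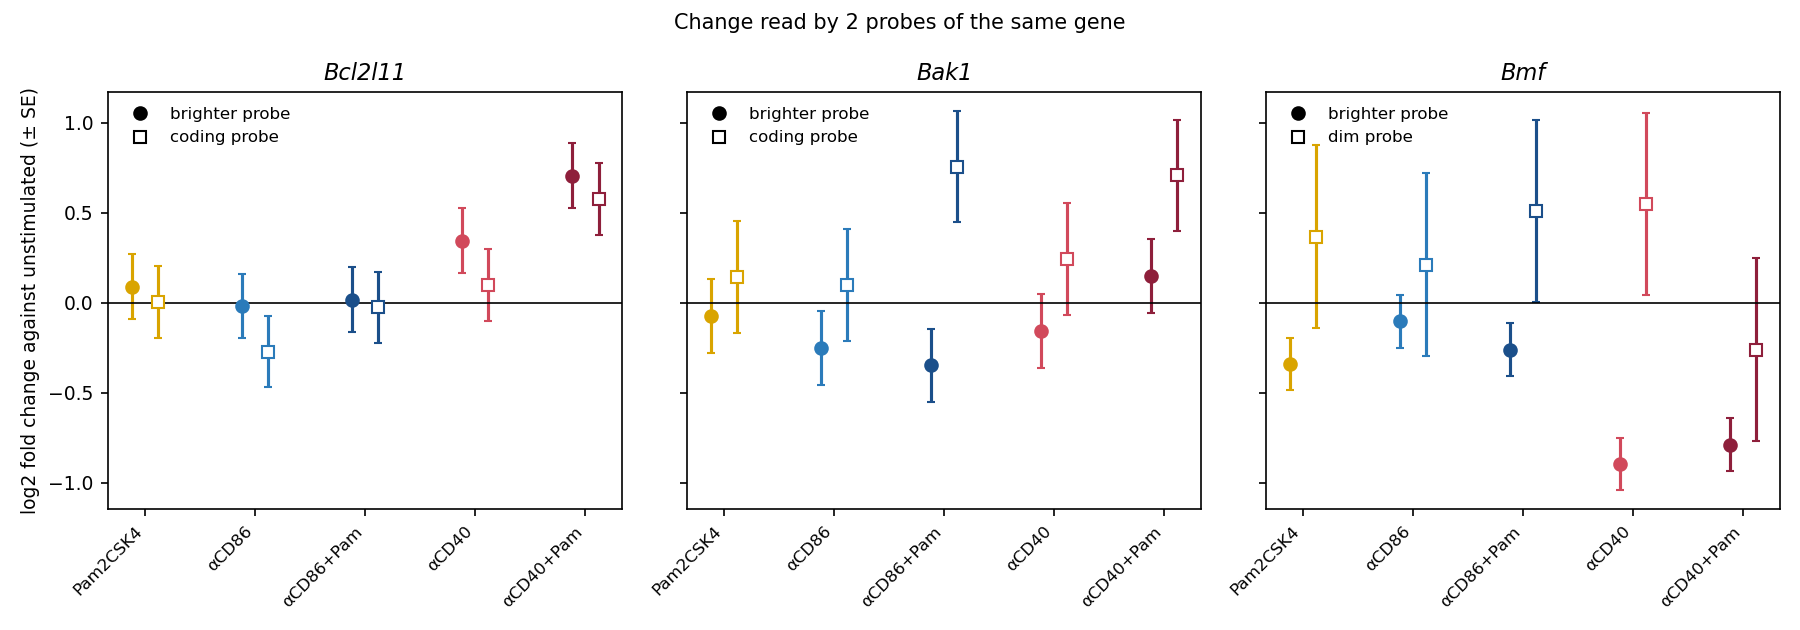
Log2 fold change against unstimulated RB cells (y axis, ± SE, n = 2 arrays a group) read by 2 probes of Bcl2l11, Bak1 and Bmf with 5 stimuli (x axis). Filled circles are the brighter probe and open squares the other. The Bcl2l11 probes read 0.71 and 0.58 with TLR2.CD40, the Bak1 probes -0.35 and 0.76 with TLR2.CD86, and the Bmf probes -0.90 and 0.55 with anti-CD40.

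Counted over the family, Pam2CSK4 changed 0 of the 8 tested genes in limma, where 0.136% of all probes were called, and 3 had an unadjusted p under 0.05. Anti-CD86 changed 1 (2.14% of all probes), TLR2.CD86 2 (10.6%), anti-CD40 3 (16.7%) and TLR2.CD40 4 (18.2%). The genes that rose, Bid and Bcl2l11, did so with stimuli that hold anti-CD40, and blocking on the slide Bcl2l11 also passed as higher with Pam2CSK4 alone. Over the 7 well-detected members the median log2 fold change was -0.34, -0.19, -0.29, -0.28 and -0.32 in the same order, beside -0.07, -0.05, -0.03, -0.01 and 0.01 over all tested probes. All 5 comparisons share the unstimulated arrays, and an array group of 2 lay wholly to one side of them for 57.5% (Pam2CSK4), 62.3% (anti-CD86), 64% (TLR2.CD86), 62.2% (anti-CD40) and 76% (TLR2.CD40) of all tested probes. No such share was counted for wider splits of the arrays, as those given above for Bid, Bmf, Bcl2l11, Pmaip1, Bbc3 and Bax.

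These counts depend on few arrays. Without unstimulated replicate 1 none of the 10 calls was left, and without unstimulated replicate 2 only that of Bid with TLR2.CD40 was. The TLR2.CD40 calls of Bcl2l11, Pmaip1 and Bid were also lost without either TLR2.CD40 array and that of Bmf without TLR2.CD40 replicate 1, the Pmaip1 call with anti-CD40 without anti-CD40 replicate 2, and the Pmaip1 call with TLR2.CD86 without TLR2.CD86 replicate 2. Of the 12 arrays, the Pmaip1 call with anti-CD86 was lost without any but those of anti-CD40, and the Bbc3 call with TLR2.CD86 without any but those of anti-CD40 and Pam2CSK4. Median scaling, which moved the median of all tested probes to between -0.58 (anti-CD40) and -0.10 (TLR2.CD40), left 0 calls. With the slide as a block the counts were 3, 2, 2, 5 and 6, where 10.8%, 28.3%, 34.9%, 37.1% and 47.4% of all probes were called.

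**Figure D4:**
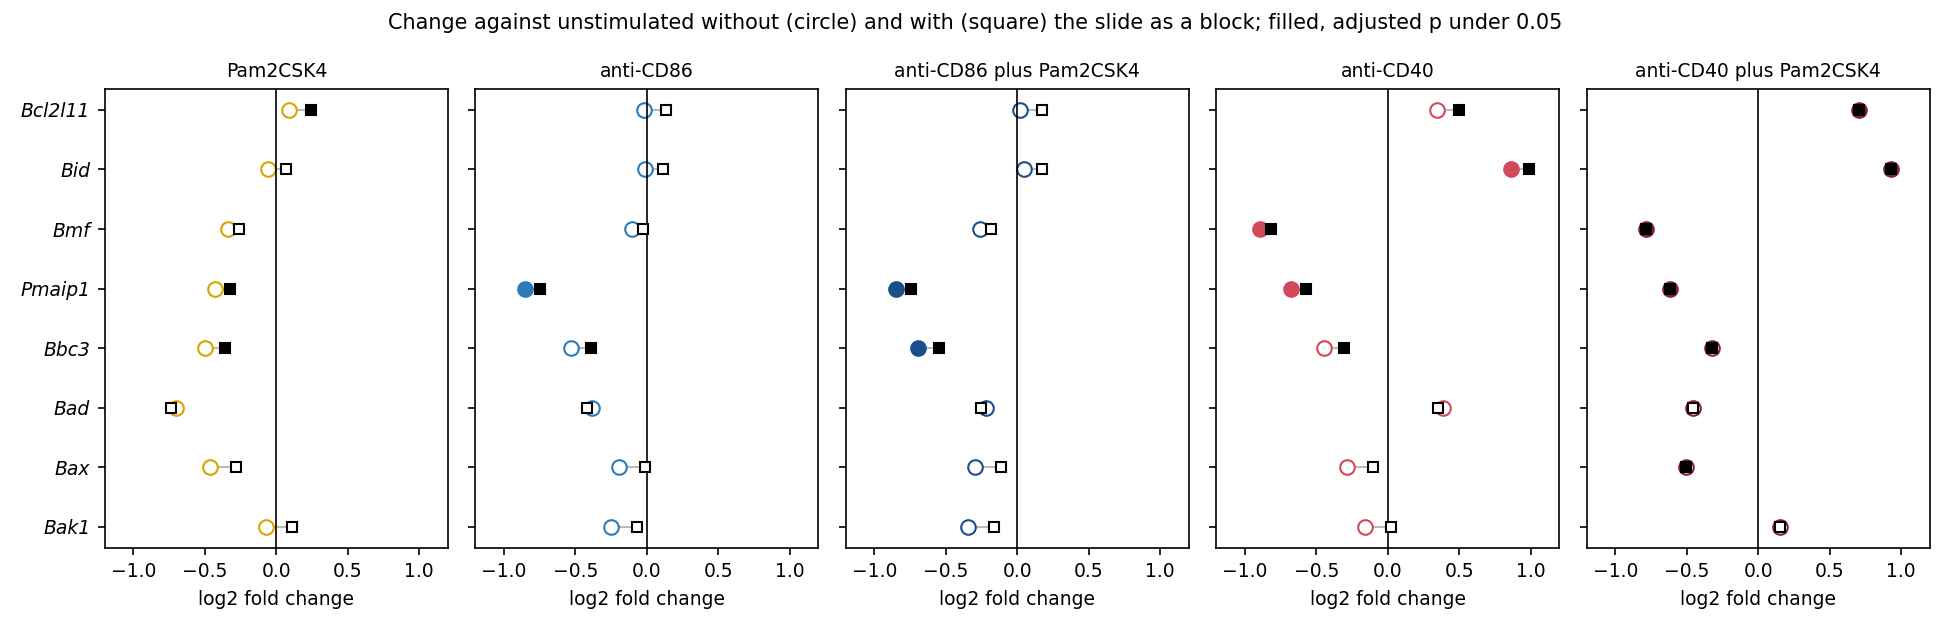
Log2 fold change against unstimulated RB cells (x axis) of 8 genes for 5 stimuli, without (circles) and with (squares) the slide as a block, n = 2 arrays a group. Filled symbols had an adjusted p under 0.05. Values of the 4 groups split over both slides move to the right for the well-detected genes, as for Bcl2l11 with anti-CD40 from 0.35 to 0.50, and those of TLR2.CD40, whose arrays share a slide with the unstimulated ones, do not move.

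The study asked whether costimulation adds to the signal through Toll like receptor 2. In this family TLR2.CD86 did not differ from Pam2CSK4 in any of the 8 tested genes in limma (0.0633% of all probes were called), nor from anti-CD86 (0.225%), with 1 and 0 genes at an unadjusted p under 0.05. Blocking on the slide, 2 (Pmaip1 and Bak1, both lower, 10.7% of all probes) and 0 (7.55%) passed. The dimmer Bak1 probe went the other way, with mean log2 levels of -0.82 with TLR2.CD86 and -1.43 with Pam2CSK4. Pmaip1 was lower with TLR2.CD86 than with Pam2CSK4 by -0.42 (SE 0.15, adjusted p = 0.371), and its mean was the same with TLR2.CD86 as with anti-CD86 (difference 0.00, 95% interval -0.34 to 0.34). TLR2.CD40 exceeded Pam2CSK4 in Bid by 0.99 (SE 0.17, adjusted p = 0.0120), the 1 gene called in this comparison (9.91% of all probes), and 4 were called once the slide was blocked (31.4%). TLR2.CD40 differed from anti-CD40 in 0 of 8 in limma (2.9%), or in 1, Bax, blocking on the slide (15%), with Bcl2l11 at 0.36 (95% interval -0.05 to 0.78) and 1 gene, Bad, at an unadjusted p under 0.05.

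The interaction is the combined log2 effect minus the sum of both single effects. It passed in 0 of 8 genes for anti-CD86 with Pam2CSK4 (0.019% of all probes) and in 0 of 8 for anti-CD40 with Pam2CSK4 (1.15%), and in 0 (0.234%) and 0 (8.41%) once the slide was blocked. For anti-CD40, Bbc3 (0.63, SE 0.25, adjusted p = 0.235) and Pmaip1 (0.48, SE 0.21, adjusted p = 0.254) had an unadjusted p under 0.05, in both of which the combined fall was smaller than the sum. On slide 1 alone, with 1 array for each single signal, these interactions were 0.28 and 0.23, and neither passed. For anti-CD86 no member did.

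The combinations were also set against each other. TLR2.CD40 was above TLR2.CD86 in Bid (0.88, SE 0.17, adjusted p = 0.0154) and in Bcl2l11, 2 of 8 genes where 12.2% of all probes were called, and 6 of 8 blocking on the slide (34.5%). Bmf was lower by -0.53 (SE 0.15, adjusted p = 0.0526). Among single signals, anti-CD40 differed from anti-CD86 in 2 genes, Bid and Bmf (10% of all probes), and from Pam2CSK4 in Bid alone (4.45%), or in 3 (34.7%) and 4 (28%) blocking on the slide. Across all 6 groups together, the moderated F test passed for Bid (adjusted p = 0.0114), Bmf (adjusted p = 0.0149) and Pmaip1 (adjusted p = 0.0244), 3 of 8 genes beside 20.1% of all probes.

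Among the pro-survival relatives that BH3-only proteins bind, Bcl2l1 rose with all stimuli but anti-CD86. Bcl2l1, which encodes Bcl-xL, had a mean log2 level of -0.42 in unstimulated RB cells and rose by 2.22 (adjusted p = 0.00416) with Pam2CSK4, 2.28 (adjusted p = 0.000732) with TLR2.CD86, 3.85 (adjusted p = 2.85e-05) with anti-CD40 and 4.72 (adjusted p = 8.47e-07) with TLR2.CD40. With anti-CD86 its value was 0.17 (adjusted p = 0.487). Of 7 tested pro-survival genes, 2, 0, 4, 4 and 4 passed with Pam2CSK4, anti-CD86, TLR2.CD86, anti-CD40 and TLR2.CD40, of which 1, Bcl2l2 with TLR2.CD86, was lower, beside 0.136%, 2.14%, 10.6%, 16.7% and 18.2% of all probes. Blocking on the slide, 4, 4, 5, 5 and 5 passed in either direction, beside 10.8%, 28.3%, 34.9%, 37.1% and 47.4% of all probes. Without the block, 2 had an unadjusted p under 0.05 with anti-CD86 in limma. The counts of the lists that follow are in the same order of stimuli and stand beside these same shares. The median of the 7 was 0.90, -0.36, 0.66, 1.61 and 2.02 in that order. The others that rose were Bcl2a1a, Bcl2a1b and Bcl2a1c, near-identical copies of the A1 gene whose probes may share transcripts. With anti-CD86 their mean log2 levels were lower (5.64, 5.21 and 1.06) than in unstimulated RB cells (6.00, 5.57 and 1.45). The study picked a gene printed as Bcl21a, which may be among these, as raised with TLR2.CD86 on these arrays. Their direction there is therefore not independent evidence.

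Of the remoter BCL2 relatives, 1 passed with anti-CD40 and 3 with TLR2.CD40. Bnip3, a mitophagy receptor with a BH3-like stretch, fell by 0.72 (adjusted p = 0.0361) with anti-CD40 and by 1.08 (adjusted p = 0.00640) with TLR2.CD40, and its homologue Bnip3l fell by 0.67 (adjusted p = 0.0178) with TLR2.CD40. Bcl2l13 rose by 0.65 (adjusted p = 0.0128) with TLR2.CD40. The calls in that list of 5 tested genes were 0, 0, 0, 1 and 3 in limma, with 1, 0, 1, 4 and 5 at an unadjusted p under 0.05, and 0, 1, 2, 4 and 4 blocking on the slide.

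Among 20 tested partners and regulators of the BH3-only proteins, 0, 0, 5, 5 and 4 passed in limma, with 7, 8, 9, 9 and 6 at an unadjusted p under 0.05. Blocking on the slide, 5, 9, 11, 12 and 11 passed. Pim1 and Pim2, kinases that phosphorylate Bad, rose with TLR2.CD86 (1.56 and 0.89), anti-CD40 (2.27 and 1.34) and TLR2.CD40 (2.29 and 1.67), with adjusted p from 0.000379 to 0.0298. Pim3 rose with anti-CD40 (1.01, adjusted p = 0.0175) and TLR2.CD40 (1.18, adjusted p = 0.00661). The dynein light chains Dynll1 and Dynll2, which tether Bim and Bmf, were lower with anti-CD40. Among the 14-3-3 genes, whose products hold phosphorylated Bad, Ywhag and Ywhah were lower with TLR2.CD86 and Ywhah with TLR2.CD40. Vdac2, which binds Bak, was lower with TLR2.CD86. Pim2 was also among the genes the study picked.

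Downstream of Bax and Bak, genes of the apoptosome and of execution were read as well. Casp9, the initiator caspase of the apoptosome, fell by 0.45 (adjusted p = 0.0467) with TLR2.CD86, by 1.18 (adjusted p = 0.00167) with anti-CD40 and by 1.52 (adjusted p = 0.000226) with TLR2.CD40. Casp6 fell by 0.90 (adjusted p = 0.0136) and 1.02 (adjusted p = 0.00540) with anti-CD40 and TLR2.CD40. Dffb, the nuclease that cuts chromatin, rose by 0.96 (adjusted p = 0.0262) with anti-CD86, 0.71 (adjusted p = 0.0201) with TLR2.CD86 and 0.50 (adjusted p = 0.0375) with anti-CD40. Apaf1, the scaffold of the apoptosome, was lower with TLR2.CD86, anti-CD40 and TLR2.CD40, and was among the genes the study picked.

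Of 11 tested genes for factors known to drive BH3-only genes, 0, 0, 1, 5 and 6 passed in limma, with 2, 1, 4, 6 and 8 at an unadjusted p under 0.05. Once the slide was blocked, 4, 3, 5, 7 and 8 passed. Myc rose by 1.60 (adjusted p = 0.00247) with anti-CD40 and 2.29 (adjusted p = 0.000244) with TLR2.CD40, and Nfkb1 by 0.99 (adjusted p = 0.00862) and 1.34 (adjusted p = 0.00154). Trp53, which codes for p53, rose by 0.48 to 0.59 with TLR2.CD86, anti-CD40 and TLR2.CD40 (adjusted p from 0.0168 to 0.0251). Jun rose by 0.51 (adjusted p = 0.0222) and Rela was higher with TLR2.CD40, whereas Foxo1 was lower with anti-CD40 and TLR2.CD40, and Ddit3 with anti-CD40.

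Pmaip1, Bbc3 and Bax are textbook targets of p53, so 16 other p53 targets were read beside them. Of these 0, 0, 2, 7 and 7 passed in limma, with 3, 5, 7, 8 and 10 at an unadjusted p under 0.05, and 3, 6, 9, 11 and 12 passed once the slide was blocked. Fas, a death receptor, rose by 1.13 (adjusted p = 0.00616) with anti-CD40 and 1.67 (adjusted p = 0.000716) with TLR2.CD40, as did Aen. Gadd45a fell by 0.74 (adjusted p = 0.0115) with TLR2.CD86, 1.06 (adjusted p = 0.00171) with anti-CD40 and 1.23 (adjusted p = 0.000399) with TLR2.CD40. Btg2 fell by 1.04 (adjusted p = 0.00387) and 0.98 (adjusted p = 0.00248), and Trp53inp1 by 0.87 (adjusted p = 0.00669) and 1.00 (adjusted p = 0.00214), with anti-CD40 and TLR2.CD40. The list's median was -0.32, -0.45 and -0.33 with TLR2.CD86, anti-CD40 and TLR2.CD40, beside -0.03, -0.01 and 0.01 over all tested probes. Lrdd (Pidd1), which this list holds, was also among the genes the study picked.

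Bid was the member with the smallest moderated F p across the 6 groups, so the genes whose levels followed it most closely were sought among 20596 named genes. They were Ercc8, Dph2, Polr1b, Pus3 and Mrpl39, with Pearson's r from 0.985 to 0.989 over the 12 arrays. This is a description, since the arrays are 6 pairs that share their stimulus and 2 of these pairs also share their slide.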

How the data were processed

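RNA of 12 RB cell samples was hybridised by the authors to a custom Agilent mouse array with 1 colour, annotated on mm9 per the labels. The deposited scanner files hold the processed signal, a background-subtracted intensity, from Feature Extraction 10.5.1.1. The deposited value table of the authors holds log2 values of the same arrays and served as an alternative. Outlier and control spots were left out, spots of a probe were averaged, and the log2 signal minus the log2 75th percentile of the array was tested with limma 3.58.1 in R 4.3.3 over 31596 probes, those that 1 or more groups held well above background on each of their arrays (31664) less 68 with a missing value, with Benjamini-Hochberg adjustment and 1 mean per group. The code was tested on simulated data. The number of arrays limits the precision. Members and lists were chosen with earlier results of these data known. Named genes were all members and, per list, up to 4 genes by the smallest moderated F p, and others complete a count and were named after their values were seen. Alternatives covered scaling, background, filter, slide, replicate number, probe choice and each array left out. Some items of the execution and marker lists are not reported here, so no count or sum is given for the lists that hold them.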

Additional observations from a re-analysis of the deposited data

How the results depend on the processing

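The counts of called members depended on the scaling, the filter and the slide, and the cause was not tested. In the order Pam2CSK4, anti-CD86, TLR2.CD86, anti-CD40 and TLR2.CD40 against unstimulated RB cells, leaving out 1 array at a time gave 0 to 0, 0 to 1, 0 to 2, 0 to 5 and 0 to 4 calls. It gave 0 to 2 for the combinations against single signals, 0 to 0 for the interactions, 0 to 3 for TLR2.CD40 against TLR2.CD86, 0 to 2 for anti-CD40 against anti-CD86, 0 to 1 for anti-CD40 against Pam2CSK4, and 1 to 4 for any difference. Median normalization gave 0 calls in each of these. With the slide as a block 3 passed for Pam2CSK4, 2 for anti-CD86, 5 for anti-CD40, 7 for the combinations against single signals, 6 for TLR2.CD40 against TLR2.CD86, 4 for anti-CD40 against Pam2CSK4 and 7 for any difference. With no filter on dim probes 1 passed for anti-CD40, 2 for TLR2.CD40 and 0 elsewhere. On slide 1 alone, where Pam2CSK4, anti-CD86, TLR2.CD86 and anti-CD40 have 1 array each, assumed to vary like the unstimulated and TLR2.CD40 pairs, 0 passed for anti-CD86, 7 for TLR2.CD40, 2 for the combinations, 1 for anti-CD40 against anti-CD86 and 0 for anti-CD40 against Pam2CSK4. The mean of all tested probes gave 2 for TLR2.CD40, 1 for TLR2.CD40 against TLR2.CD86 and 1 for anti-CD40 against anti-CD86. Quantile normalization gave 3 for the combinations and 2 for anti-CD40 against Pam2CSK4.

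Over 15 pairs of groups the deviations of same-numbered arrays correlated at -0.11 to 0.67, with 6 pairs over 0.1. Those 6, at 0.54 to 0.67, are the pairs among the 4 groups split over both slides, where the number is the slide and goes with the arrays' deviations. It does not in the other 9, so the number was not taken to pair all samples. The replicate block gave 2 calls for anti-CD86, 4 for anti-CD40 (3 without it), 2 for the combinations against single signals, 5 for TLR2.CD40 against TLR2.CD86 and 5 for any difference.

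No called value changed sign, but small ones did. For Bcl2l11, the value with Pam2CSK4 became -0.11 (median normalization) and ran from -0.088 (without Pam2CSK4 replicate 1) to 0.27 as single arrays were left out, but was 0.24 and passed with the slide block. Anti-CD86 became 0.18 (quantile), 0.14 (slide block), 0.089 (slide 1) and -0.12 to 0.089 (single arrays left out). TLR2.CD86 became -0.27 (median), -0.16 to 0.19 (single arrays left out) and -0.0036 (mean of probes), and anti-CD40 -0.22 (median). For Bid, Pam2CSK4 became 0.019 (quantile), 0.070 (slide block), 0.069 (slide 1) and -0.19 to 0.069 (single arrays left out). Anti-CD86 became 0.049 (quantile), 0.018 (normexp), 0.12 (slide block), 0.034 (slide 1) and -0.11 to 0.082 (single arrays left out). TLR2.CD86 became -0.24 (median) and -0.096 to 0.19 (single arrays left out). For Bad, TLR2.CD86 became 0.015 (slide 1, -0.45 to 0.015 with single arrays left out) and anti-CD40 -0.18 (median), -0.067 (quantile) and -0.13 (slide 1, -0.13 to 0.91 with single arrays left out). For Bmf the mean of probes gave 0.014 (Pam2CSK4), 0.055 (anti-CD86) and 0.13 (TLR2.CD86), and quantile normalization 0.0065 (anti-CD86). For Bak1, Pam2CSK4 became 0.023 (quantile), 0.11 (slide block), 0.087 (slide 1, -0.23 to 0.087 with single arrays left out) and 0.036 (mean of probes), TLR2.CD86 0.21 (mean of probes), and anti-CD40 0.024 (slide block), 0.048 (slide 1, -0.36 to 0.048 with single arrays left out) and 0.043 (mean of probes). Signal over background limits Bad, Bik, Hrk and the second Bmf probe.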
